A study of Mus musculus with 6 samples.

Results

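The hyaluronan genes are 10 genes that make, break or bind hyaluronan, the long sugar chain that fills the space around connective tissue cells. They were chosen by symbol from the 18059 genes of the deposited tables, and all 10 were found. Expression was measured in primary cardiac fibroblasts from hearts of C57BL/6 mice aged 1 to 2 weeks, grown in medium with 15% serum. The PDGF-DD group (3 libraries) received PDGF-DD for 12 hours at a labelled 20 µM, which is far above usual growth factor doses and may be a mistaken unit. The control group (3 libraries) received saline. In the labels' protocols the cells of both groups come from mice with a global knockout of PDGF-D, whereas the genotype field gives PDGF-D -/- for the PDGF-DD libraries and control for the control libraries. If that field is right, genotype and treatment cannot be told apart. Nothing in the labels ties the 3 libraries of a group to different cultures or animals. The p-values therefore reflect library-to-library spread alone, and that spread may be technical.

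Hyaluronan is spun out through the plasma membrane by the synthases HAS1, HAS2 and HAS3, which join 2 UDP-sugars in alternation. HYAL2, held at the cell surface, cuts long chains into fragments, and HYAL1 cuts them further in lysosomes. The chains are bound by the receptor CD44 and by the proteoglycan versican (Vcan), which link proteins such as HAPLN1 and HAPLN3 lock onto the chain, while TSG-6 (Tnfaip6) transfers the heavy chains of the serum protein inter-α-trypsin inhibitor onto it. PDGF-DD is the active dimer of PDGF-D, a ligand mainly of the receptor PDGFRβ, and hyaluronan-rich matrix is a known product of fibroblasts in growth and repair.

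The libraries held between 21221114 and 21371829 estimated read counts, and 13270 genes were tested. Pdgfd had 69, 72 and 82 counts in the PDGF-DD libraries, against 118, 114 and 91 in the control libraries (edgeR adjusted p = 0.00245, log2 fold change -0.55). Gene-level counts do not tell whether the disrupted part of Pdgfd was transcribed. Of the receptor genes, Pdgfra rose by 0.40 and Pdgfrb fell by 0.40 on the log2 scale. Control replicate 1 stood somewhat apart, since its counts differed from the other control libraries with 5.11 and 5.7 times the chi-square that read sampling gives, beside 1.9 to 2.74 times for the other pairs within a group. The 10 fibroblast markers were all detected, with 1 higher and 6 lower, and summed to 18500 to 18800 TPM in the PDGF-DD libraries and 20100 to 22100 TPM in the control libraries. The libraries also held transcripts of other cells. The 10 leukocyte and macrophage markers summed to 390.0 to 412 TPM with PDGF-DD and 448 to 467 TPM in control. Most of that sum was Lyz2, at 265 to 276 TPM with PDGF-DD and 302 to 329 TPM in control. Endothelial markers (8 genes) summed to 175 to 177 TPM with PDGF-DD and 179 to 199 TPM in control.

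Cells given PDGF-DD had more transcript of the receptor Cd44, of versican and, to a smaller degree, of TSG-6, while the transcripts of the synthases did not pass the test. Of the 10 genes 9 had enough counts to be tested. Of these, 4 rose (Cd44, Vcan, Tnfaip6 and Hyal2), 1 fell (Hyal1) and 4 did not pass (Has1, Has2, Has3 and Hapln3), by edgeR's quasi-likelihood test with Benjamini-Hochberg adjustment at 0.05. Over all tested genes 36.5% were called, 19.1% as higher and 17.4% as lower, beside 5 of 9 here. The 9 genes are few and were chosen with earlier results of these data known, so no excess can be read from these shares. The median log2 fold change of the 9 genes was 0.22, beside -0.012 over all tested genes. The tool mattered for the smaller changes: with DESeq2, which called 28.3% of all genes it tested, 2 of the members (Cd44 and Vcan) passed and the calls of Tnfaip6, Hyal1 and Hyal2 were lost.

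**Figure D1:**
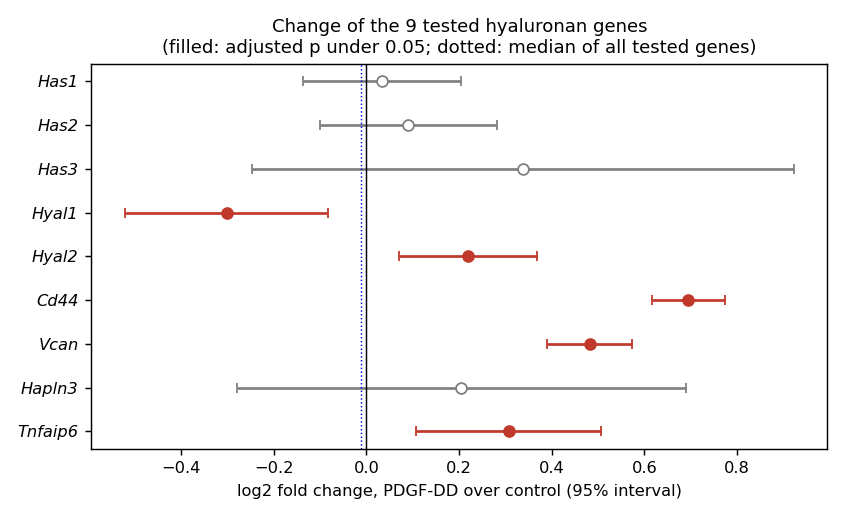
Log2 fold change, PDGF-DD over control, of the 9 tested hyaluronan genes (points) with 95% intervals (bars); filled red points have an adjusted p under 0.05, open points do not, and the dotted line is the median of all tested genes. Cd44 (0.69) and Vcan (0.48) lie farthest to the right with narrow intervals, Hyal1 (-0.30) is the one called gene to the left of 0, and Has3, with the lowest counts of the 9, has the widest interval.

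Levels spanned a wide range. In deposited TPM, which are scaled to the transcript length the authors' tool used, Cd44 stood highest in both groups, followed by Vcan, Hyal2 and Tnfaip6. These 4 levels did not overlap one another in any group. Has2 and Hyal1 came next. Their control values overlapped, while with PDGF-DD Has2 lay above Hyal1. Hapln3, Has3 and Hapln1 were each under 1 TPM in every library. Has1 had 2.23 to 2.73 TPM, but is given no place in this order because its TPM rests on a doubtful length. The TPM groups of PDGF-DD and control lay apart for 4 of the 9 tested genes, beside 43.1% of all tested genes.

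**Figure D2:**
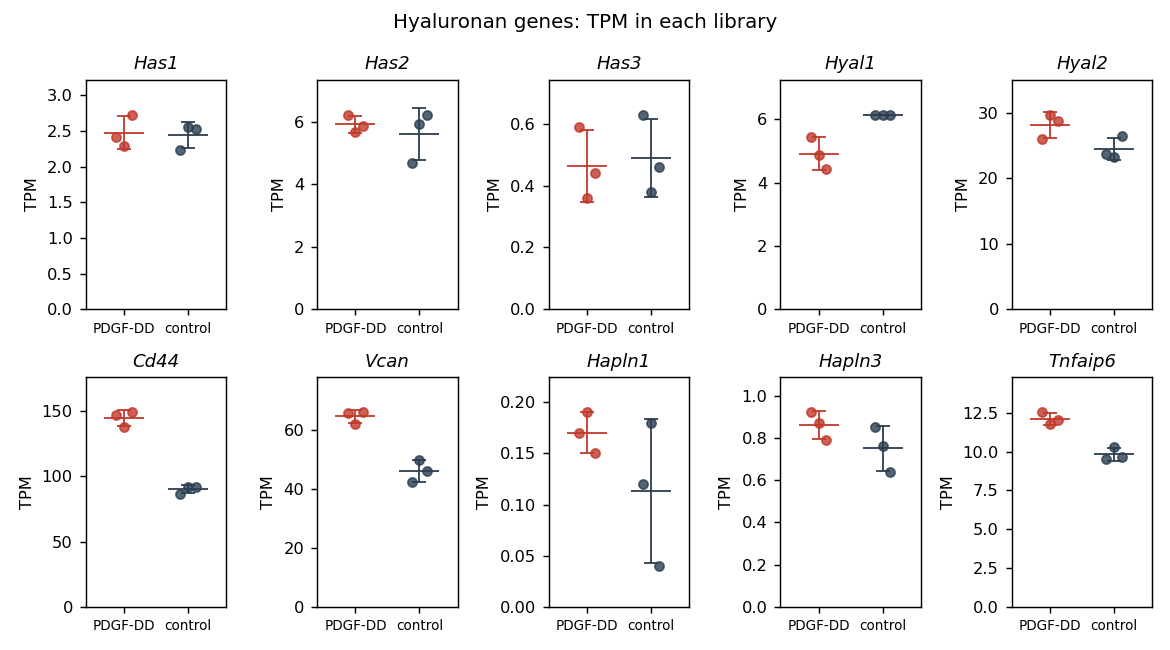
TPM of each of the 10 hyaluronan genes in the 3 PDGF-DD libraries (left, red) and the 3 control libraries (right, dark), with means (horizontal lines) and SD (bars); each vertical axis starts at 0 and has its own scale. The groups lie apart for Hyal1, Cd44, Vcan and Tnfaip6 and overlap for the other 6 genes.

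Has2 encodes the synthase that is essential for heart development in mice. It stood at 6.22, 5.68 and 5.86 TPM with PDGF-DD, against 4.67, 5.93 and 6.22 TPM in control. Control replicate 1 was the lowest library and the groups overlapped. The log2 fold change was 0.09 (SE 0.09, 95% interval -0.10 to 0.28, edgeR adjusted p = 0.478), and without control replicate 1 it was -0.005. At this depth, of 188 to 243 counts per library, the interval allows a small rise or fall of Has2. Its exons overlap those of Has2os, an antisense gene, in the GENCODE M21 annotation, and the strand setting of the authors' counting is not given, so reads of both cannot be told apart.

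Has1 had 2.42, 2.29 and 2.73 TPM with PDGF-DD, against 2.23, 2.56 and 2.53 TPM in control. The groups overlapped, with a log2 fold change of 0.03 (SE 0.08, 95% interval -0.14 to 0.20, edgeR adjusted p = 0.781). Has3, whose enzyme makes shorter chains in transfected cells, had 31, 18 and 20 counts with PDGF-DD and 20, 14 and 20 in control. In TPM it stood at 0.59, 0.36 and 0.44 with PDGF-DD and 0.63, 0.38 and 0.46 in control, so the order of the group means differed between counts and TPM. Its log2 fold change of 0.34 had an interval of -0.25 to 0.92, so a change of Has3 was not detectable at this depth. Has3 overlaps Chtf8 on the opposite strand in GENCODE M21, with the same limit as for Has2.

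The order of the synthases depended on the transcript length used. By deposited TPM, Has2 made up 67.4%, 68.2% and 64.9% of the summed synthase level with PDGF-DD and 62.0%, 66.9% and 67.5% in control, a difference of 1.35 percentage points (exact two-sided permutation test, p = 0.6). Dividing counts by TPM shows which length the authors' values imply. For Has1 it was 12.4 kb, whereas its longest transcript in GENCODE M21 is 3.54 kb and the whole gene with introns spans 11.9 kb. The other 9 genes had implied lengths between 0.65 and 1.11 times their longest transcript, beside 3.52 times for Has1, a ratio that 0.112% of 9841 compared genes reached. The compared genes all had a higher mean TPM than Has1, so the share among genes at its level is not known. Per kilobase of longest annotated transcript, Has1 had 77.2 ± 6.71 counts with PDGF-DD and 74.6 ± 3.51 in control (SD, n = 3 each). On that scale Has2 had 55.2 ± 1.87 counts with PDGF-DD and 51.4 ± 6.2 in control, so Has1 stood above Has2 there and below it in TPM. Hyal1 had 43.9 ± 4.86 counts per kilobase with PDGF-DD and 53.6 ± 1.5 in control, also below Has1. The fold change of Has1 was fitted on counts and uses no length, but those counts were not whole in any library, which makes its value less certain.

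**Figure D3:**
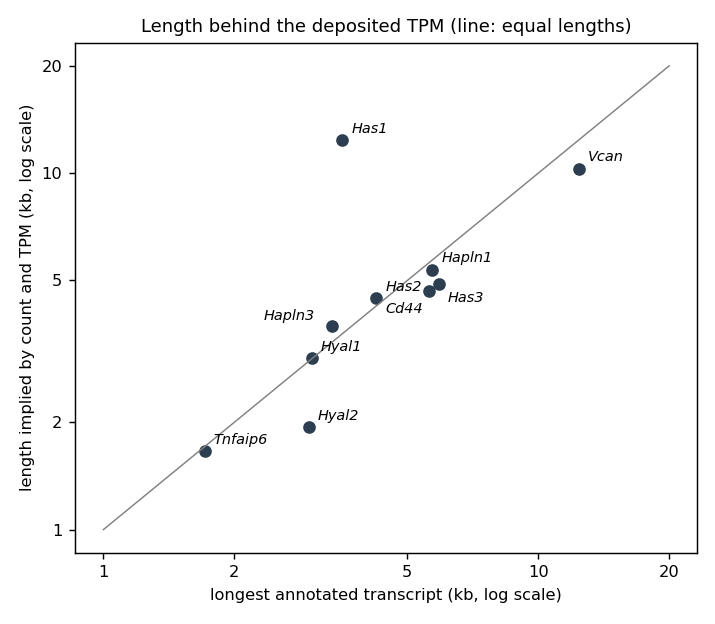
Transcript length implied by the deposited counts and TPM (vertical axis, kb, log scale) against the longest transcript in GENCODE M21 (horizontal axis, kb, log scale) for the 10 hyaluronan genes (points); the line marks equal lengths. Has1 lies far above the line, at 12.4 kb against 3.54 kb, and the other 9 genes lie at 0.65 to 1.11 times the annotated length.

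The genes of hyaluronan breakdown moved in opposite directions, by small amounts. Hyal2 stood at 25.9, 29.7 and 28.8 TPM with PDGF-DD, against 23.7, 23.3 and 26.5 TPM in control. In TPM control replicate 3 lay above PDGF-DD replicate 1, while in CPM (counts scaled to library size) the groups did not overlap, as for 47.1% of all tested genes. Its log2 fold change was 0.22 (SE 0.07, edgeR adjusted p = 0.0188). This call was lost with DESeq2 (adjusted p = 0.075), in limma on log2(TPM + 1) without a filter on low values (0.0871) and without PDGF-DD replicate 2 (0.0866), PDGF-DD replicate 3 (0.0565) or control replicate 2 (0.111).

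Hyal1 had 5.46, 4.86 and 4.43 TPM with PDGF-DD, against 6.13, 6.14 and 6.15 TPM in control. Every PDGF-DD library lay below every control library, and an exact permutation test (two-sided) had p = 0.1, the lowest possible with 3 against 3 libraries. The log2 fold change was -0.30 (SE 0.11, edgeR adjusted p = 0.0275). It was lost with DESeq2 (adjusted p = 0.158) and without PDGF-DD replicate 2 (0.078), PDGF-DD replicate 3 (0.17), control replicate 1 (0.0661) or control replicate 2 (0.0569). Exons of Hyal1 overlap those of Hyal3 and Naa80 on the same strand in GENCODE M21, and its counts were not whole in any library, so the value of Hyal1 is uncertain. The summed TPM of the 3 synthases over that of these 2 hyaluronidases was -1.9 ± 0.144 with PDGF-DD and -1.85 ± 0.13 in control on the log2 scale (SD, n = 3 each; exact two-sided permutation test, p = 0.6). The level of this ratio includes the doubtful Has1 TPM. On read counts, which are not scaled to length, it was -0.218 ± 0.138 with PDGF-DD and -0.201 ± 0.132 in control (exact permutation test, p = 0.9).

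Cd44, the main hyaluronan receptor of fibroblasts, changed most among the called members. It had 6015, 5771 and 6121 counts with PDGF-DD, against 3626, 3658 and 3673 counts in control, or 147, 138 and 149 TPM with PDGF-DD and 86.7, 92.0 and 92.1 TPM in control. All 3 PDGF-DD libraries lay far above all 3 control libraries. Its log2 fold change reached 0.69 (95% interval 0.62 to 0.77, SE 0.04, edgeR adjusted p = 2.85e-13), a 1.62-fold rise, and 3.88% of tested genes had a larger absolute change. Mean FPKM, the authors' other length-scaled value, was 64.0 with PDGF-DD and 39.35 in control. Cd44 is also carried by leukocytes. Their 10 markers held 0 genes that rose and 1 that fell (Lyz2), and the pan-leukocyte marker Ptprc was at 1.25, 1.24 and 1.13 TPM with PDGF-DD and 1.54, 1.48 and 1.75 TPM in control. In bulk RNA, fewer cells of a type and less RNA per cell cannot be told apart. The part of leukocytes in the change of Cd44 was not tested. A gene-level count does not separate standard from variant CD44 transcripts.

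Vcan encodes versican, the large chondroitin sulfate proteoglycan whose head binds hyaluronan. It had 65.9, 62.3 and 66.0 TPM with PDGF-DD, against 42.3, 49.7 and 46.2 TPM in control. The groups did not overlap, and the spread among control libraries was the wider. The log2 fold change was 0.48 (SE 0.04, 95% interval 0.39 to 0.57, edgeR adjusted p = 4.13e-09), a 1.4-fold rise. The implied length of 10.3 kb lies below that of the longest transcript (12.4 kb), and the splice forms of versican cannot be told apart in these counts. Without control replicate 1 the change was 0.44, the lowest value under any alternative tried, and Vcan was called under each of the 16 alternatives, as was Cd44.

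Tnfaip6, which encodes the hyaluronan-crosslinking protein TSG-6, had 12.5, 11.8 and 12.0 TPM with PDGF-DD, against 9.52, 10.3 and 9.67 TPM in control. The groups did not overlap. Its log2 fold change was 0.31 (SE 0.10, 95% interval 0.11 to 0.51, edgeR adjusted p = 0.0144), and DESeq2 gave an adjusted p of 0.108. Its counts, 175 to 181 with PDGF-DD and 137 to 146 in control, were not whole in any library, which makes its value less certain.

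The link proteins were scarce. Hapln3 had 31, 28.1 and 26.4 counts with PDGF-DD and 27.6, 24.0 and 21.1 in control, and its log2 fold change of 0.20 had a 95% interval of -0.28 to 0.69. Hapln1, a link protein of cartilage and of the developing heart, had 8, 9 and 7 counts with PDGF-DD and 6, 8 and 2 in control and was left out by the filter on low counts. The interval of Hapln3 includes both 0 and the change of Vcan, so a difference was not detectable at this depth.

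The promoters of the 3 hyaluronan-binding genes that rose (Cd44, Vcan and Tnfaip6) are shown so that their sequence can be set beside their shared direction. Promoters were matched by symbol in a RefSeq table of build GRCm38.p6 for 8 of the 10 genes, and the 250 bases before each start site were searched on both strands. Capitals mark matches to 5 motifs. The AP-1 motif was searched as TGAGTCA on either strand. For the cyclic AMP response element (CRE) the letters were TGACGTCA, a palindrome. The motif of TEAD factors was searched as GGAATG on either strand. The GC-box, a motif of SP1-family factors, was GGGCGG. The TATA motif was searched with the letters TATAAA, again on either strand. The motifs were chosen after the sequences had been seen. The windows are chr2:102901666-102901915 on the minus strand for Cd44, chr13:89742513-89742762 on the minus strand for Vcan and chr2:52037863-52038112 on the plus strand for Tnfaip6.
Cd44 promoter: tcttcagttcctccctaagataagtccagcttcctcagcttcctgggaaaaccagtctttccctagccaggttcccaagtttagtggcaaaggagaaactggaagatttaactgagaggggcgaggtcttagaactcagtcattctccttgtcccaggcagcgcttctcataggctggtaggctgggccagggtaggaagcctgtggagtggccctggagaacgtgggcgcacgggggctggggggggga
Vcan promoter: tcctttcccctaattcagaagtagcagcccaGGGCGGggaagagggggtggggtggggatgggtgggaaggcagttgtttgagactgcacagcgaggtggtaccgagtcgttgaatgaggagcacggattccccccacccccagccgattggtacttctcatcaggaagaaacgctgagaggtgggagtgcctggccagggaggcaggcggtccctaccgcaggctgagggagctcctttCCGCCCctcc
Tnfaip6 promoter: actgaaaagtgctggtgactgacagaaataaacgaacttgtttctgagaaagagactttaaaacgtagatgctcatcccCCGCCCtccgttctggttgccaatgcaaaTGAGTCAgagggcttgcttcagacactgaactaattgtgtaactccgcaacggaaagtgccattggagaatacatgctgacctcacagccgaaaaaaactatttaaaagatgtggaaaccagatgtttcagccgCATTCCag
The Tnfaip6 window held an AP-1 motif that begins 142 bases before the start site, a TEAD motif at 8 bases and a GC-box at 171 bases. The Vcan window held GC-boxes that begin 219 and 10 bases before the start, and the Cd44 window held none of the 5 motifs. Among 32851 RefSeq windows of the same length, AP-1 occurred in 4.46%, TEAD in 12.6%, the GC-box in 32.7%, CRE in 1.55% and TATA in 12.4%. Has1 held a CRE 83 bases before its start, Hapln3 a TATA motif, Hyal2 a GC-box and a TEAD motif, and Hyal1 2 GC-boxes that overlap each other, while Hapln1 held none. None of the 5 motifs was in all 3 windows of Cd44, Vcan and Tnfaip6. A match describes letters only and shows no binding.

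Other genes of hyaluronan handling were taken from 8 lists with 81 genes, of which 77 were in the tables and 70 were tested. Of these 70 genes 16 rose and 19 fell, the other 35 missed the threshold, and the median log2 fold change was 0.01. Over all tested genes 36.5% were called, 19.1% as higher and 17.4% as lower. The counts of each list below are to be read beside these shares. The lists are described by counts and medians, with no test of a list itself.

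**Figure D4:**
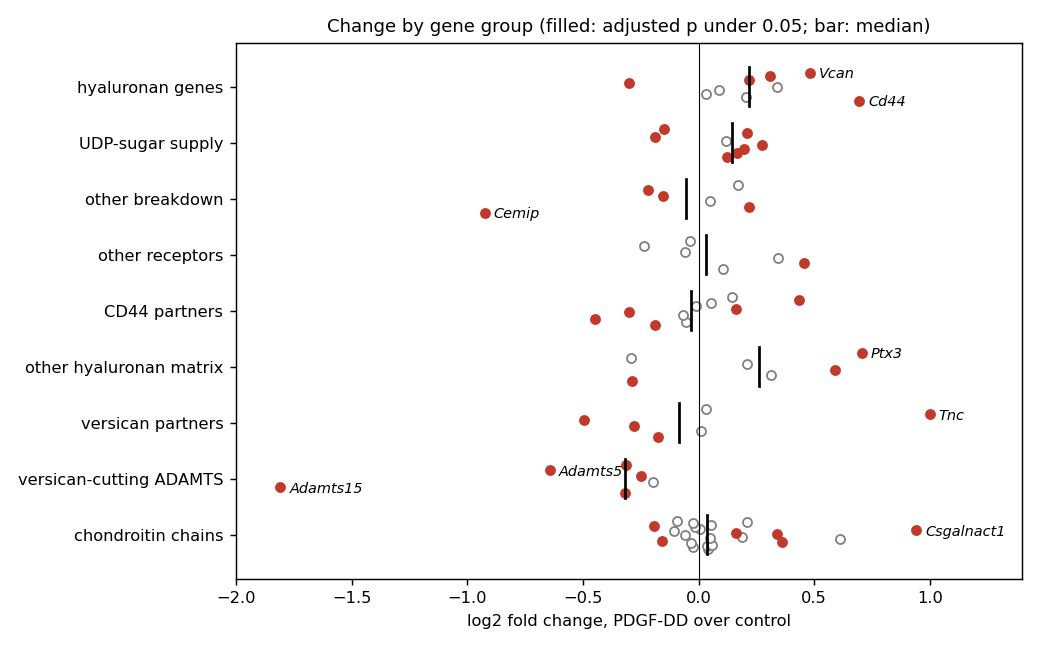
Log2 fold change, PDGF-DD over control, of each tested gene (points) by gene group, with the hyaluronan genes at the top; filled red points have an adjusted p under 0.05 and black bars mark group medians. All 6 versican-cutting ADAMTS genes lie to the left of 0 (5 called), while Tnc, Csgalnact1 and Ptx3 lie far to the right within mixed groups.

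The list of hyaluronan breakdown genes other than Hyal1 and Hyal2 had its largest fall among called genes in Cemip. Cemip, whose product binds hyaluronan and is needed for its breakdown by skin fibroblasts in humans, stood at 157, 153 and 148 TPM with PDGF-DD, against 272, 302 and 302 TPM in control. The log2 fold change was -0.92 (SE 0.04, edgeR adjusted p = 1.02e-15), or 1.90-fold lower with PDGF-DD, and the groups lay far apart. Its relative at the cell surface, Cemip2, changed the other way, by 0.22 (adjusted p = 0.0178), a call lost in 7 of 16 alternatives, among them DESeq2 and leaving out PDGF-DD replicate 3, control replicate 1 or control replicate 2. Hexa, which encodes part of a lysosomal enzyme that trims hyaluronan fragments, fell by 0.15 on the log2 scale (edgeR adjusted p = 0.00404). Gusb and Hyal3 did not pass. Over the list 1 of the 6 tested genes rose and 3 fell. Unlike the ratio to Hyal1 and Hyal2, the synthase sum relative to Cemip differed between the groups. In TPM it was 5.81 ± 0.34% of Cemip with PDGF-DD and 2.92 ± 0.146% in control (SD, n = 3 each). An exact two-sided permutation test had p = 0.1, the lowest possible. On read counts it was 5.17% and 2.59%. The level in TPM again includes the doubtful Has1 value.

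Of 8 genes of UDP-sugar supply 5 rose and 2 fell, with a median log2 fold change of 0.14. Ugdh, which makes UDP-glucuronate, averaged 186 ± 7.11 TPM with PDGF-DD and 161.5 ± 2.2 TPM in control (SD, n = 3 each; log2 fold change 0.21, edgeR adjusted p = 0.000113). Along the hexosamine pathway to UDP-N-acetylglucosamine, Pgm3 rose by 0.27, Gnpnat1 by 0.20, Gfpt2 by 0.17 and Gfpt1 by 0.12, and Uap1 had 0.12 and did not pass (adjusted p = 0.0502). The genes that fell were Ugp2, which makes UDP-glucose (-0.15), and Uap1l1, a relative of Uap1 (-0.19). All of these changes were small and the counts of called genes were not stable. There were 3 higher genes without control replicate 3, 0 lower genes without PDGF-DD replicate 3 and 1 lower gene without control replicate 2, while limma on log2(TPM + 1) without a filter gave 2 higher and 1 lower. Of 16 alternatives Gfpt1 lost its call in 8, Ugp2 in 3, Gnpnat1 in 2, and Gfpt2 and Uap1l1 in 1 each. Ugdh and Pgm3 kept their calls under all 16.

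Among 6 tested genes of other hyaluronan receptors 1 rose. It was Layn, which encodes layilin, at 83.2, 78.2 and 86.8 TPM with PDGF-DD and 59.8, 62.9 and 61.9 TPM in control (log2 fold change 0.45, edgeR adjusted p = 9.96e-09). The log2 fold changes of Hmmr, Stab1, Lyve1, Tlr2 and Tlr4 lay between -0.24 and 0.34 and missed the threshold. Of 10 partners of CD44, 2 rose and 3 fell. Spp1, which encodes the CD44 ligand osteopontin, averaged 176 ± 9.21 TPM with PDGF-DD and 131 ± 4.26 TPM in control, a log2 fold change of 0.43. Of the linkers between CD44 and actin, Msn rose by 0.16, Ezr changed by -0.45 and Rdx did not pass. Of 3 genes of proteases that shed CD44, Mmp14 and Adam10 fell, with log2 fold changes of -0.30 and -0.19, and Adam17 had -0.06 and did not pass (edgeR adjusted p = 0.363).

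Further matrix proteins that meet hyaluronan or versican included large rises. Ptx3, which encodes a pentraxin that TSG-6 and heavy chains tie into hyaluronan matrix, had 243, 247 and 254 TPM with PDGF-DD, against 162, 145 and 151 TPM in control. Its log2 fold change was 0.71 (SE 0.05, edgeR adjusted p = 2.65e-10). Tnc, a versican-binding tenascin, averaged 729.7 ± 29.1 TPM with PDGF-DD and 365 ± 12.4 TPM in control, a log2 fold change of 1.00. In the same list of versican partners Fbn1, Fbn2 and Fbln1 fell by 0.28, 0.50 and 0.18 on the log2 scale, and Fbln2, the most abundant, did not pass. Hapln4 rose by 0.59 and Acan changed by -0.29, both from levels under 6 TPM and each lost with DESeq2. Without PDGF-DD replicate 3 or control replicate 3 the call of Hapln4 was lost, and that of Acan was lost without PDGF-DD replicate 1 or 2 or control replicate 2 or 3. Of the heavy-chain genes, Itih2 and Itih5 did not pass and Itih3 and Itih4 were too low to test.

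Of 6 tested genes of proteases that cut versican 5 fell and 0 rose with PDGF-DD, beside 17.4% of all tested genes called as lower. Adamts20 had -0.20 and did not pass, and the median log2 fold change was -0.32. The list is small and was chosen with earlier results of these data known. Adamts5 stood at 76.9, 70.1 and 76.7 TPM with PDGF-DD, against 111, 119 and 122 TPM in control (log2 fold change -0.64, SE 0.04, edgeR adjusted p = 2.31e-12). Adamts1, Adamts9 and Adamts4 had log2 fold changes of -0.32, -0.32 and -0.25. Adamts15 changed by -1.81 on low counts, with 13.1, 7 and 10.0 with PDGF-DD and 31, 33 and 41 in control. The 6 genes summed to 192, 179 and 190.1 TPM with PDGF-DD and 242, 265 and 269 TPM in control.

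Most genes that build the chondroitin chains of versican did not pass, with 4 of 22 higher, 2 lower and a median log2 fold change of 0.04. Csgalnact1, which starts chondroitin chains, stood apart at 13.8, 13.6 and 13.5 TPM with PDGF-DD, against 6.64, 7.2 and 7.5 TPM in control (edgeR adjusted p = 6.58e-11, log2 fold change 0.94, SE 0.07). The sulfotransferase genes Chst11 and Chst7 rose by 0.36 and 0.34, and the polymerase gene Chsy1 by 0.16. Chst12 and Dsel changed by -0.16 and -0.19. Chst11 and Chst7 kept their calls under all 16 alternatives. The calls of Dsel, Chsy1 and Chst12 were not stable: of 16 alternatives Dsel lost its call in 8, Chsy1 in 5 and Chst12 in 4. The count of lower genes was 1 with DESeq2, 1 without PDGF-DD replicate 1 or 3 or control replicate 2 or 3, and 0 without PDGF-DD replicate 2. The abundant polymerising factors Chpf and Chpf2 did not pass.

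**Figure D5:**
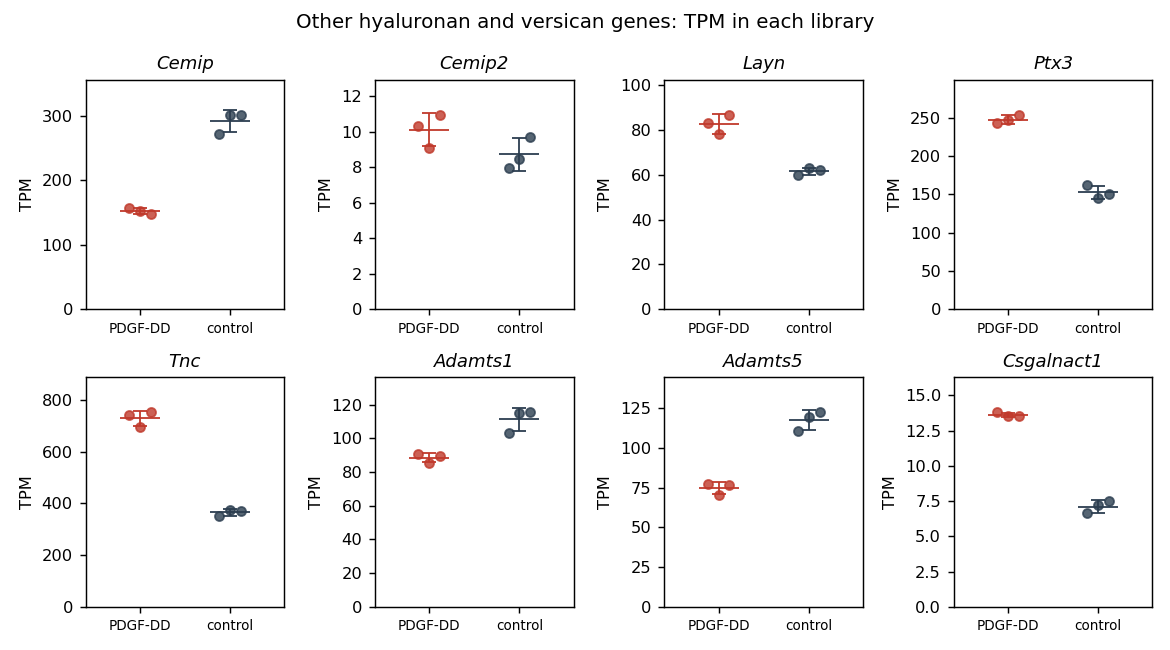
TPM of 8 other hyaluronan and versican genes in the 3 PDGF-DD libraries (left, red) and the 3 control libraries (right, dark), with means (horizontal lines) and SD (bars); each vertical axis starts at 0. Cemip, Adamts1 and Adamts5 are lower with PDGF-DD, Layn, Ptx3, Tnc and Csgalnact1 are higher, and the groups overlap for Cemip2.

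Genes listed as markers of contractile cells were also lower in part. The 8 smooth muscle and pericyte markers summed to 4870 to 5150 TPM with PDGF-DD and 6380 to 6500 TPM in control, with 4 lower and 1 higher (Cspg4). Nearly all of that sum was Acta2, at 4708 to 4969 TPM with PDGF-DD and 6202 to 6300 TPM in control. Myh11 of the same list averaged 4.57 TPM with PDGF-DD and 9.53 TPM in control. Cardiomyocyte markers (8 genes) summed to 227 to 256 TPM with PDGF-DD and 319 to 343 TPM in control. Nearly all of that sum was Tnnt2, while Myh6 averaged 1.34 TPM with PDGF-DD and 2.2 TPM in control. Of the 8 genes 3 were lower, and Myh7 was at 0 in some libraries and under 1 TPM in all. Bulk RNA does not tell which cells, fibroblasts included, carried Acta2 and Tnnt2. Mesothelial markers (6 genes, 1 lower) summed to 74.9 to 76.6 TPM with PDGF-DD and 74.5 to 85.9 TPM in control. Schwann cell markers (5 genes, 0 called) summed to 7.66 to 8.12 TPM with PDGF-DD and 8.75 to 9.65 TPM in control. The part of any of these cell types in the changes of the hyaluronan genes was not tested.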

How the data were processed

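Messenger RNA of 3 PDGF-DD and 3 control libraries was captured on oligo(dT) beads and sequenced from nanoballs, according to the labels' protocols. The submitters' processing notes name build mm9 and, with no role stated, RSEM 1.2.12, HISAT2 2.0.4, DESeq2 1.4.5 and Bowtie2 2.2.5. The sources used here do not give the annotation, read filters or strandedness. The deposited estimated counts are per gene and library without normalization, and 31.9% to 32.7% are not whole. The deposited FPKM and TPM values were scaled by the authors to transcript length and depth, per the file headers.

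Counts were rounded, filtered with filterByExpr (13270 genes kept), scaled with TMM (factors 0.995 to 1.005) and compared with edgeR 4.0.16 (quasi-likelihood F test, robust, two-sided, R 4.3.3). Genes with a Benjamini-Hochberg adjusted p under 0.05 over all tested genes were called. SE is the absolute log2 fold change divided by the square root of F. Single values in TPM were compared by exact permutation tests. DESeq2 1.42.0 and limma 3.58.1 served as alternatives. On simulated counts for this comparison (13234 genes) 24% of genes changed 1.15-fold, 64% of genes changed 1.3-fold and 91.7% of genes changed 2-fold were recovered. Of 13037 unchanged genes 13 were called. The simulation changed a far smaller share of genes than the 36.5% called in the data, so its recovery rates need not hold for the data. Promoters came from RefSeq (GRCm38.p6) and transcript lengths and overlaps from GENCODE M21, both matched by symbol, since their build differs from that of the files.

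The members and lists were chosen with earlier results of these data known. Named genes are all members and, from each list, up to 6 called genes by p and the 2 of highest TPM, besides Pdgfd, Pdgfra and Pdgfrb. Other genes, markers included, were chosen after their values were seen. The values of 1 list gene are not reported here.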

Additional observations from a re-analysis of the deposited data

How the results depend on the processing

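Cd44 (log2 fold change 0.67 to 0.73) and Vcan (0.44 to 0.53) kept their direction and call under all 16 alternatives. DESeq2 called 2 hyaluronan genes as higher and 0 as lower, since Tnfaip6 (0.31, adjusted p = 0.108), Hyal2 (0.22, 0.075) and Hyal1 (-0.30, 0.158) missed the threshold there, and Hyal2 also did in limma on log2(TPM + 1) with no filter (0.19, 0.0871). Leaving out 1 library gave 3 to 4 higher and 0 to 1 lower, with -0.378 to -0.216 for Hyal1 and 0.173 to 0.284 for Hyal2. Among genes that did not pass, the sign turned for Has1 (-0.027 to 0.089) and Has2 (-0.005 to 0.16) when 1 library was left out, and for Has3 in limma on log2(TPM + 1) with no filter (-0.026). That setting called 9 list genes as higher in place of 16. Has3 and Hapln3 fell under the TPM filter and have no value in limma with that filter, and Hapln1, left out by the count filter, missed the threshold without a filter in edgeR (adjusted p = 0.499) and in limma on log2(TPM + 1) (0.441). Of 35 called list genes 22 kept their call under every alternative that gave them a value, 13 lost it under some and 0 turned. Among the 22, Adamts15 has no value in limma with the TPM filter, which called 4 versican-cutting protease genes as lower in place of 5. The cause of these changes was not tested.

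Same-numbered libraries did not deviate together (correlations -0.07, -0.09 and -0.03), so the numbers were not taken as pairs. With the replicate block the fit called 4 hyaluronan genes as higher and 1 as lower, as without it.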
